A study of Arabidopsis thaliana with 24 samples.

Results

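The genotype by iron interaction in roots is the change that iron deficiency made in roots of the rglg1/2 double mutant minus the change it made in roots of the wild type Col. Its members are the 12 root arrays of the 24 arrays in the series, taken by their titles. They fall into 4 groups of 3 arrays that the labels call biological replicates. Arabidopsis thaliana plants were raised in continuous light and treated from day 10 for 3 days. The +Fe medium held 40 µM FeEDTA, and in the -Fe medium a ferrozine-type chelator at 100 µM kept iron from the plants. At 13 days roots and leaves were collected separately. The groups were Col +Fe, Col -Fe, rglg1/2 +Fe and rglg1/2 -Fe, and rglg1/2 in the Col background is called the mutant from here on. The labels give neither the alleles nor the number of lines behind the double mutant, and no complemented line was among the samples.

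RGLG1 and RGLG2 encode RING-domain ubiquitin ligases, enzymes that attach ubiquitin to other proteins. Roots of Arabidopsis answer a lack of iron with a cascade of bHLH transcription factors, which raises genes for the release of iron-mobilising coumarins, for iron reduction and for metal uptake. BTS-type ubiquitin ligases restrain that cascade, and the small IMA peptides promote it. A gene with no interaction has the same log2 response in both genotypes, even where its level differs between them. A negative interaction means that the response was more negative in the mutant, and a positive one that it was more positive.

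The log2 signals were centred for each probe set on its median over the 24 arrays, so they show differences between arrays and no absolute level. Of 17810 probe sets tested, 9869 stood for a single named gene. No such probe set stood for RGLG1 or RGLG2, and their transcripts were not analysed here. Root identity of the arrays followed their labels. The mean of 3 measured root hair genes was 1.54 to 1.92 on the root arrays and -2.18 to -1.65 on the leaf arrays, and the mean of 7 measured photosynthesis genes was -3.04 to -2.06 on root and 1.92 to 2.49 on leaf arrays. The defining genes of the inner root cell types had no measured probe set. In bulk roots, fewer cells of a type and less RNA per cell cannot be told apart.

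Replicates within root groups correlated across probe sets at r = 0.933 to 0.984. On the second axis of variation among root arrays, which separated the genotypes, mutant +Fe replicate 3 lay at -11, and replicates 1 and 2 of that group lay at -25.3 and -26.1. Array weights estimated from the fit were lowest for mutant +Fe replicate 3 (0.296) and Col +Fe replicate 3 (0.33). The 5′ minus 3′ difference of the control probe sets, a sign of RNA or cRNA quality, also split the mutant +Fe group. It was -0.037 and -0.088 in its replicates 1 and 2, 0.17 in its replicate 3, and 0.111 to 0.304 on the other 9 root arrays. By this measure replicates 1 and 2 stood apart, whereas by position on the second axis replicate 3 did. In all 4 root groups, replicate 3 had the highest 5′ minus 3′ difference and lay nearest to 0 on the second axis, and in 3 of the 4 it had the lowest weight. The part of these differences in the results was not tested.

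The interaction was called for 3 of 17810 probe sets (0.0168%; limma, Benjamini-Hochberg adjusted p under 0.05), and all 3 were negative. They were AT1G65500, AT3G46880 and the glutaredoxin gene GRXS5 (AT4G15690). Unadjusted p-values were under 0.05 for 812 probe sets with a negative interaction (4.56%) and 570 with a positive one (3.2%). The iron response was called for 921 probe sets in Col roots (5.17%) and 1266 in mutant roots (7.11%). The genotypes differed at 1913 probe sets on +Fe (10.7%) and at 693 on -Fe (3.89%). With 3 arrays a group the median standard error of an interaction was 0.155 on the log2 scale, and the median half-width of its 95% interval was 0.332. P-values measure the spread between these arrays only.

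AT1G65500 had the largest negative interaction of all probe sets. In Col it measured -3.33, -2.72 and -2.68 on +Fe (replicates 1 to 3) and -1.11, -1.01 and -1.83 on -Fe. In the mutant it measured 0.07, -0.07 and -0.39 on +Fe and -0.93, -0.99 and -1.21 on -Fe. All Col -Fe arrays lay above all Col +Fe arrays, all mutant -Fe arrays lay below all mutant +Fe arrays, and the genotypes overlapped on -Fe. The gene rose 3.01-fold in Col (log2 1.59 ± 0.21 SE, adjusted p = 0.000266, limma) and fell by 0.91 ± 0.21 in the mutant (adjusted p = 0.0178). It was 6.86-fold higher in the mutant on +Fe (2.78 ± 0.21), and on -Fe the difference was 0.28 ± 0.21, with an adjusted p of 0.553. The interaction was -2.50 ± 0.30 (limma, adjusted p = 0.0118). It lost its call in 3 of the 12 fits that left out 1 root array each, namely those without mutant +Fe replicate 1, mutant +Fe replicate 2 or mutant -Fe replicate 3, with adjusted p from 0.0595 to 0.0918.

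AT3G46880 differed between the genotypes on both media, in opposite directions. Its Col values were -0.08, 0.10 and 0.08 on +Fe and 0.77, 0.60 and 0.83 on -Fe. In the mutant they were 0.74, 0.47 and 0.25 on +Fe and 0.07, -0.14 and -0.32 on -Fe. Groups that differ in 1 factor did not overlap: the mutant lay above Col on +Fe and below it on -Fe. The mutant was higher by 0.45 ± 0.13 on +Fe (adjusted p = 0.0382) and lower on -Fe, at -0.86 ± 0.13 (adjusted p = 0.00199, limma). Its interaction was -1.31 ± 0.18 (limma, adjusted p = 0.0376), called in 4 of the 12 fits with an array left out. They left out replicate 3 of Col on +Fe, replicate 2 of Col on -Fe, or in the mutant replicate 3 on +Fe or replicate 1 on -Fe, and the other adjusted p-values ran from 0.0505 to 0.172.

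GRXS5 measured -1.69, -2.00 and -1.43 in Col on +Fe and -0.84, -1.29 and -0.95 on -Fe. In the mutant it measured -0.38, -0.72 and -0.56 on +Fe and -1.18, -1.33 and -1.44 on -Fe. Within each genotype the media did not overlap, and on -Fe the genotypes did. The gene was 2.22-fold higher in the mutant on +Fe (1.15 ± 0.15, adjusted p = 0.000377, limma), and on -Fe the difference was -0.29 ± 0.15 (adjusted p = 0.349). It rose by 0.68 ± 0.15 in Col (adjusted p = 0.0147) and fell by 0.76 ± 0.15 in the mutant (adjusted p = 0.00684). The interaction of -1.44 ± 0.21 had an adjusted p of 0.0496 (limma), next to the threshold, and was called in 3 of 12 fits with an array left out. These fits left out replicate 3 of Col on +Fe, replicate 2 of Col on -Fe or replicate 3 of the mutant on +Fe, and in the others its adjusted p was 0.0557 to 0.249. With all 24 arrays in 1 fit it was 0.562 and with robust eBayes 0.0521. With array weights it was 0.00314, with the replicate number as a block 0.00988 and with single-gene probe sets 0.0257.

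**Figure D1:**
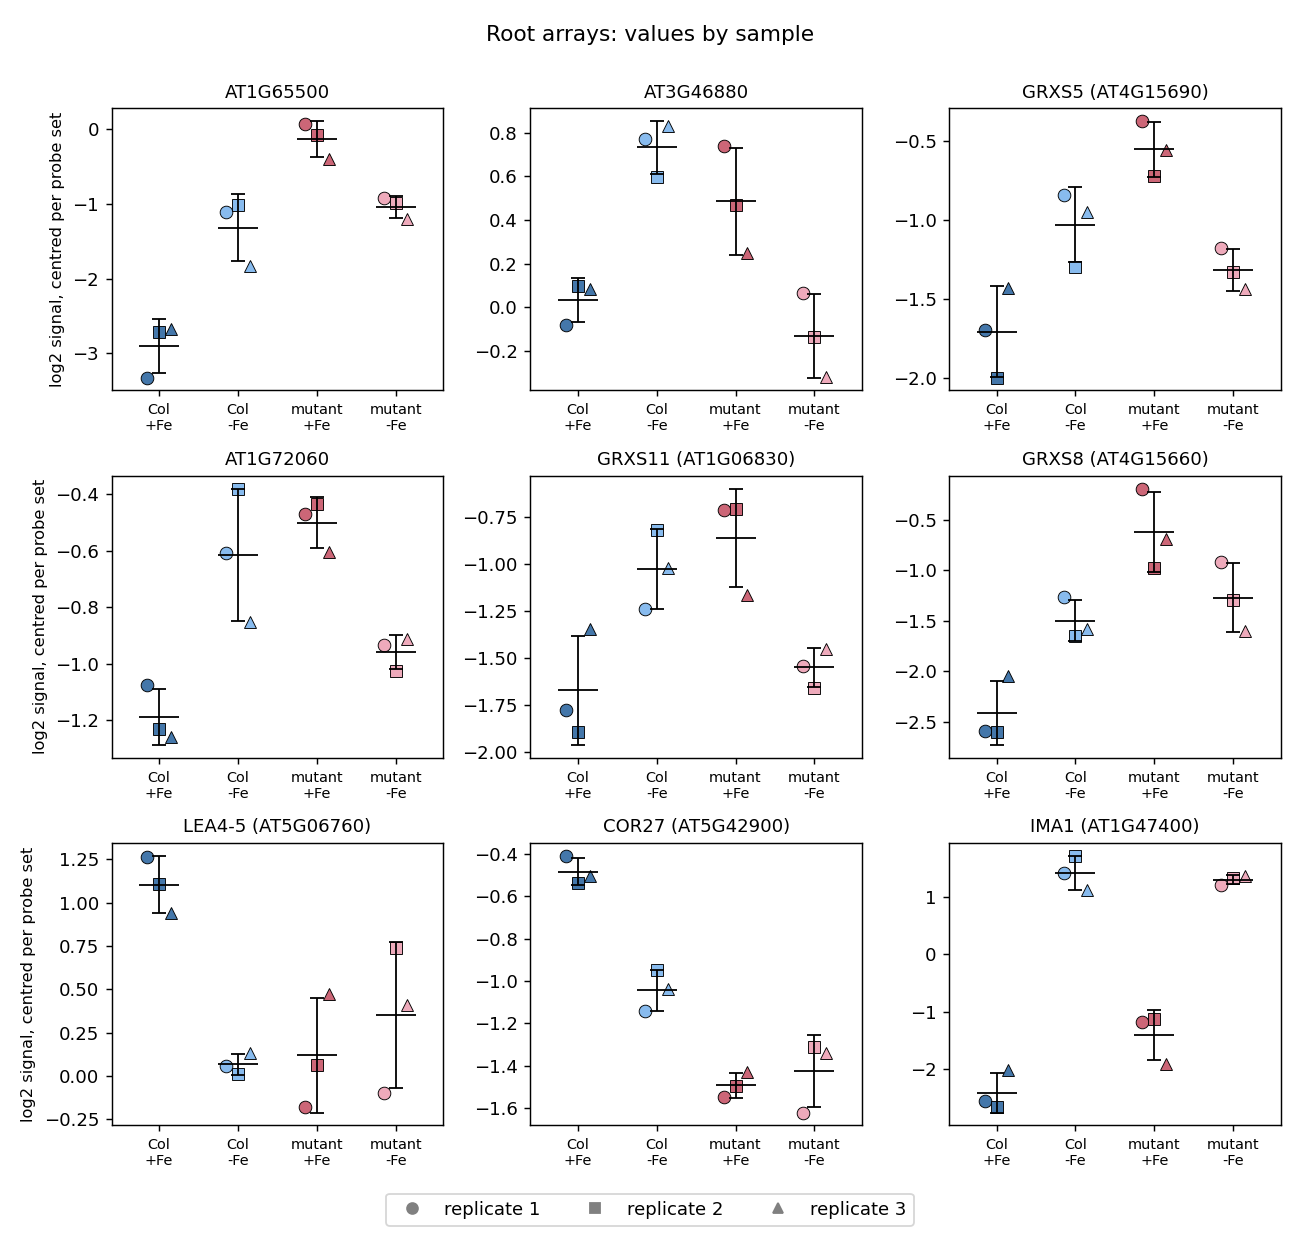
Log2 signal centred per probe set (y axes, each panel on its own scale) on the 12 root arrays for 9 genes, with points for arrays, horizontal lines for group means and bars for SD (n = 3). In the top row the Col arrays were higher on -Fe and the mutant arrays lower, and IMA1 at the bottom right was higher on -Fe in both genotypes.

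Among all probe sets, 523 were called for the iron response in both genotypes, and in 5 of them the directions were opposite. Those 5 were the 3 genes above, AT1G72060 and the glutaredoxin gene GRXS11 (AT1G06830). Of the 523, 515 had an interaction smaller than 1 on the log2 scale in either direction. For 462 of them the 95% interval of the interaction included 0.

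The CC-type glutaredoxins are a plant-specific family of small thioredoxin-fold proteins, many of which bind TGA transcription factors. The genes AT4G15660 to AT4G15700 are neighbours in the genome. Symbols such as GRXS5 come from the gene list, where the annotation used here may hold the locus code alone. Of 19 genes listed, 15 were measured, each by 1 probe set. This list and those below were written with earlier results of these data known, so counts over their members are descriptions. Interactions were negative for 12 of the 15 and positive for 3, with a median of -0.551, against -0.004 over all probe sets tested. GRXS5 was the 1 member called (0.0168% of all probe sets), and 9 members had a negative interaction with an unadjusted p under 0.05 (4.56% of all). Without mutant +Fe replicate 3, 4 members were called, all negative (1.27% of all probe sets were called negative in that fit). They were GRXS5, GRXS8, GRXS9 and GRXS11. For GRXS8 and GRXS9 no other fit with 1 array left out gave a call, with adjusted p up to 0.605 and 0.875 (limma). Whether probe sets of neighbouring, similar genes share signal was not tested.

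The measured members of the neighbouring run were GRXS8 (AT4G15660), GRXS4 (AT4G15680), GRXS5 and GRXS3 (AT4G15700). GRXS8 measured -2.59, -2.61 and -2.05 in Col on +Fe, -1.27, -1.65 and -1.59 in Col on -Fe, -0.19, -0.98 and -0.70 in the mutant on +Fe and -0.92, -1.30 and -1.60 in the mutant on -Fe. The Col groups did not overlap, and the mutant groups did. Its interaction was the most negative of the family, -1.56 ± 0.30, with an adjusted p of 0.211 (limma). GRXS3 had an interaction of -0.89 ± 0.19 (adjusted p = 0.352). It fell by 0.65 ± 0.14 in the mutant (adjusted p = 0.0104), and its Col difference was 0.24 ± 0.14. GRXS4 had the interaction nearest to 0 in the run, -0.48 ± 0.18.

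Outside that run, GRXS11 and GRXS9 (AT2G30540) showed a similar order of groups. GRXS11 measured -1.78, -1.90 and -1.34 in Col on +Fe, -1.24, -0.82 and -1.02 in Col on -Fe, -0.71, -0.71 and -1.17 in the mutant on +Fe and -1.54, -1.66 and -1.45 in the mutant on -Fe. Both pairs of media were separated, upward in Col and downward in the mutant. The interaction of GRXS11 was -1.34 ± 0.22 (adjusted p = 0.0908, limma) and that of GRXS9 was -0.92 ± 0.19 (adjusted p = 0.315).

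By genotype, 3 of the 15 glutaredoxins rose on -Fe in Col (2.2% of all probe sets rose) and 0 fell (2.97% of all). The 3 were GRXS5, GRXS8 and GRXS11. In the mutant 5 fell (4.24% of all) and 0 rose (2.87% of all), namely GRXS5, GRXS11, GRXS9, GRXS3 and GRXS6 (AT3G62930). On +Fe, 8 of the 15 were higher in the mutant (5.69% of all) and 0 were lower (5.05% of all). On -Fe, 1 was higher (1.81% of all) and 3 were lower (2.08% of all).

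The 3 genes lower in the mutant on -Fe differed in pattern from the run described above. GRXS6 measured 0.11, 0.31 and -0.03 in Col on -Fe and -0.41, -0.58 and -0.60 in the mutant on -Fe, a difference of -0.66 ± 0.11 (adjusted p = 0.00375, limma), and on +Fe the genotypes differed by -0.08 ± 0.11. ROXY2 (AT5G14070), known for its part in anther development, was lower on -Fe at -0.72 ± 0.13, and GRXC14 (AT3G62960) at -0.68 ± 0.18. Their interactions, -0.58, -0.55 and -0.60 in the order given, were not called.

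The remaining 6 members had interactions between -0.09 and 0.12, and 0 of these were called. GRX480 (AT1G28480), a glutaredoxin that binds TGA factors and is known from salicylic acid responses, is 1 of them. It was higher in the mutant on +Fe by 0.84 ± 0.19 (adjusted p = 0.0138, limma) and on -Fe by 0.83 ± 0.19 (adjusted p = 0.0272). Its interaction was -0.01, with a 95% interval from -0.59 to 0.57. The others were ROXY1, GRXS2, GRXS1, GRXC11 and GRXC13, with interval ends between -0.59 and 0.50.

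**Figure D2:**
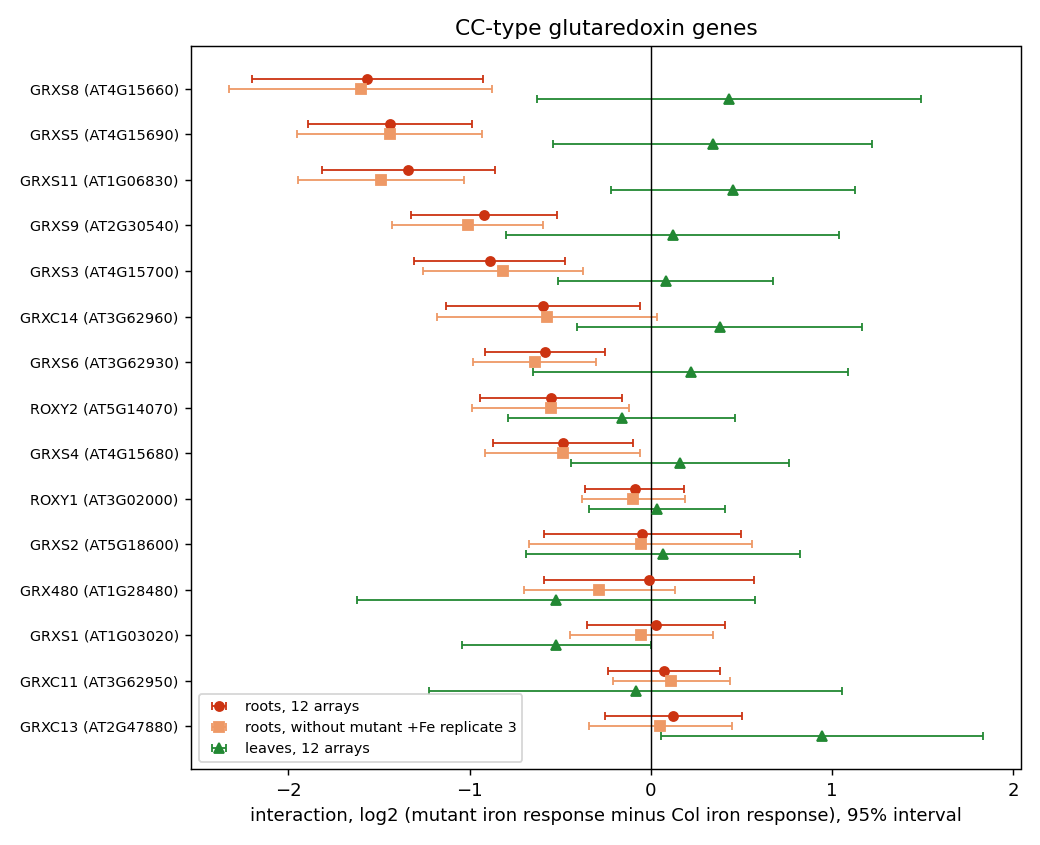
Interaction in log2 units (x axis) with 95% intervals for the 15 measured CC-type glutaredoxin genes in roots, in roots without mutant +Fe replicate 3, and in leaves. In roots, 9 genes lie below 0 with intervals that leave out 0. In leaves, with all leaf arrays, ROXY2 lies below 0 and the others of these genes above it, with intervals that include 0.

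The 12 named genes with the smallest p among negative interactions include the 5 glutaredoxins GRXS5, GRXS11, GRXS8, GRXS9 and GRXS3, and 7 genes known here by locus code. The 7 are AT1G65500, AT3G46880, AT1G72060, AT1G23205, AT3G18450, AT5G66815 and AT2G47950. These genes were chosen by the interaction, so their responses are descriptions. All 12 had a positive estimate in Col and a negative one in the mutant, and 9 were called in Col (2.2% of all probe sets) and 8 in the mutant (4.24%). The Col -Fe arrays lay above all Col +Fe arrays in 11 of the 12 (10.2% of all probe sets), the mutant -Fe arrays lay below all mutant +Fe arrays in 8 (14.9% of all), and both held in 7 (0.32% of all). In 11 of the 12 the genotype difference was larger on +Fe than on -Fe, which was not counted over all probe sets. All 12 were called higher in the mutant on +Fe (5.69% of all). Without mutant +Fe replicate 3, 11 of the 12 had a called interaction (1.27% of all), and GRXS3 did not (adjusted p = 0.0566, limma).

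AT1G72060 lay just outside the threshold. It measured -1.07, -1.23 and -1.26 in Col on +Fe, -0.61, -0.38 and -0.85 in Col on -Fe, -0.47, -0.43 and -0.60 in the mutant on +Fe and -0.93, -1.02 and -0.91 in the mutant on -Fe. The media were separated within each genotype, in opposite directions. Its interaction was -1.03 ± 0.16 (adjusted p = 0.0525, limma), and it was called when each array was centred on its own median or when only single-gene probe sets were tested. It was also called in 2 of the 12 fits with an array left out, those without Col -Fe replicate 3 or mutant +Fe replicate 3. Over the 12 fits its adjusted p ran from 0.00969 to 0.249 (limma).

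AT5G66815 had the largest genotype difference on +Fe among the 9 of these genes that were not called, 1.95 ± 0.17. Its values were 1.20, 1.22 and 1.14 in Col on +Fe, 1.80, 2.01 and 1.76 in Col on -Fe, 3.42, 3.41 and 2.58 in the mutant on +Fe and 2.65, 2.79 and 2.54 in the mutant on -Fe. Every mutant array lay above every Col array, and mutant +Fe replicate 3 lay within the range of the mutant -Fe arrays. The interaction was -1.14 ± 0.25 (adjusted p = 0.352, limma) and became -1.42 ± 0.13 without that array (adjusted p = 0.00293). No other fit with 1 array left out called it, and its adjusted p reached 0.882 (limma). AT3G18450 and AT2G47950 rose in Col, by 0.94 ± 0.18 and 0.62 ± 0.11, and their mutant estimates were -0.35 ± 0.18 and -0.06 ± 0.11.

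A pair of probe sets without a single named gene had interactions of similar size, and neither was called (adjusted p = 0.0908, limma). Both were called without mutant +Fe replicate 3, with adjusted p of 0.0306 and 0.025. The first measured -0.20, 0.18 and 0.03 in Col on +Fe and 3.04, 3.35 and 1.81 in Col on -Fe, and 1.75 to 2.52 on all mutant arrays. The mutant arrays of both media lay well above Col +Fe, and the interaction was -2.37 ± 0.39. In the second probe set the Col arrays measured -3.67 to -2.92 on both media, the mutant +Fe arrays -0.32, -0.61 and -0.63 and the mutant -Fe arrays -1.90, -1.88 and -2.18. It fell by 1.46 ± 0.17 in the mutant, its Col estimate was -0.08 ± 0.17, and the interaction was -1.38 ± 0.23.

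Positive interactions were called for 0 probe sets, with 570 at an unadjusted p under 0.05. The smallest p among named genes belonged to LEA4-5 (AT5G06760), a late embryogenesis abundant protein of dehydration responses. It measured 1.26, 1.11 and 0.94 in Col on +Fe, 0.06, 0.01 and 0.13 in Col on -Fe, -0.18, 0.06 and 0.47 in the mutant on +Fe and -0.10, 0.74 and 0.41 in the mutant on -Fe. Col +Fe arrays stood above all other root arrays. LEA4-5 fell by 1.03 ± 0.19 in Col (adjusted p = 0.00338, limma), its mutant estimate was 0.23 ± 0.19, and the interaction was 1.27 ± 0.26 (adjusted p = 0.352). Without mutant +Fe replicate 3 it was 1.44 ± 0.25 (adjusted p = 0.0246, limma). No other fit with 1 array left out called it, and its adjusted p reached 0.875.

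COR27 (AT5G42900), a gene raised by cold and tied to the circadian clock, measured -0.41, -0.54 and -0.50 in Col on +Fe and -1.14, -0.95 and -1.04 in Col on -Fe. All 6 mutant arrays lay below every Col array, at -1.62 to -1.31. Its interaction was 0.63 ± 0.14 (adjusted p = 0.352, limma), and 0.66 ± 0.14 without mutant +Fe replicate 3 (adjusted p = 0.0385). The interaction of OCT1 (AT1G73220), an organic cation and carnitine transporter, was 0.96 ± 0.25. That of scpl48 (AT3G45010), a serine carboxypeptidase-like protein, was 0.64 ± 0.16, and that of the plastid ribosomal protein gene rps2 was 0.50 ± 0.14. Without that array rps2 gave 0.57 ± 0.13 (adjusted p = 0.0458, limma), and OCT1 and scpl48 were not called. COR27 and rps2 had no call in any other fit with 1 array left out, with adjusted p up to 0.882 and 0.941.

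The 12 named genes with the smallest p among positive interactions were also chosen by the interaction, so their responses are descriptions. All 12 had a negative estimate in Col, of which 7 were called (2.97% of all probe sets). In the mutant 9 had a positive estimate, and 0 were called as risen (2.87% of all). On +Fe, 10 of the 12 were called lower in the mutant (5.05% of all). In the fit without mutant +Fe replicate 3, 7 of the 12 had a called interaction (0.898% of all). The Col -Fe arrays lay below all Col +Fe arrays in all 12 (10.1% of all probe sets), the mutant -Fe arrays lay above all mutant +Fe arrays in 3 (14.4% of all), and both held in those 3 (0.157% of all). In 11 of the 12 positive genes the genotype difference was larger on +Fe, which was not counted over all probe sets. Over all probe sets, 30 had an interaction of at least 1 on the log2 scale (0.168%), 20 negative and 10 positive. The genotype difference was larger on +Fe in 23 of these 30, and the responses had opposite signs in 17. These 30 were chosen by the size of the interaction, and neither count was made over all probe sets. Genotype differences were called for 10.7% of all probe sets on +Fe and 3.89% on -Fe.

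**Figure D3:**
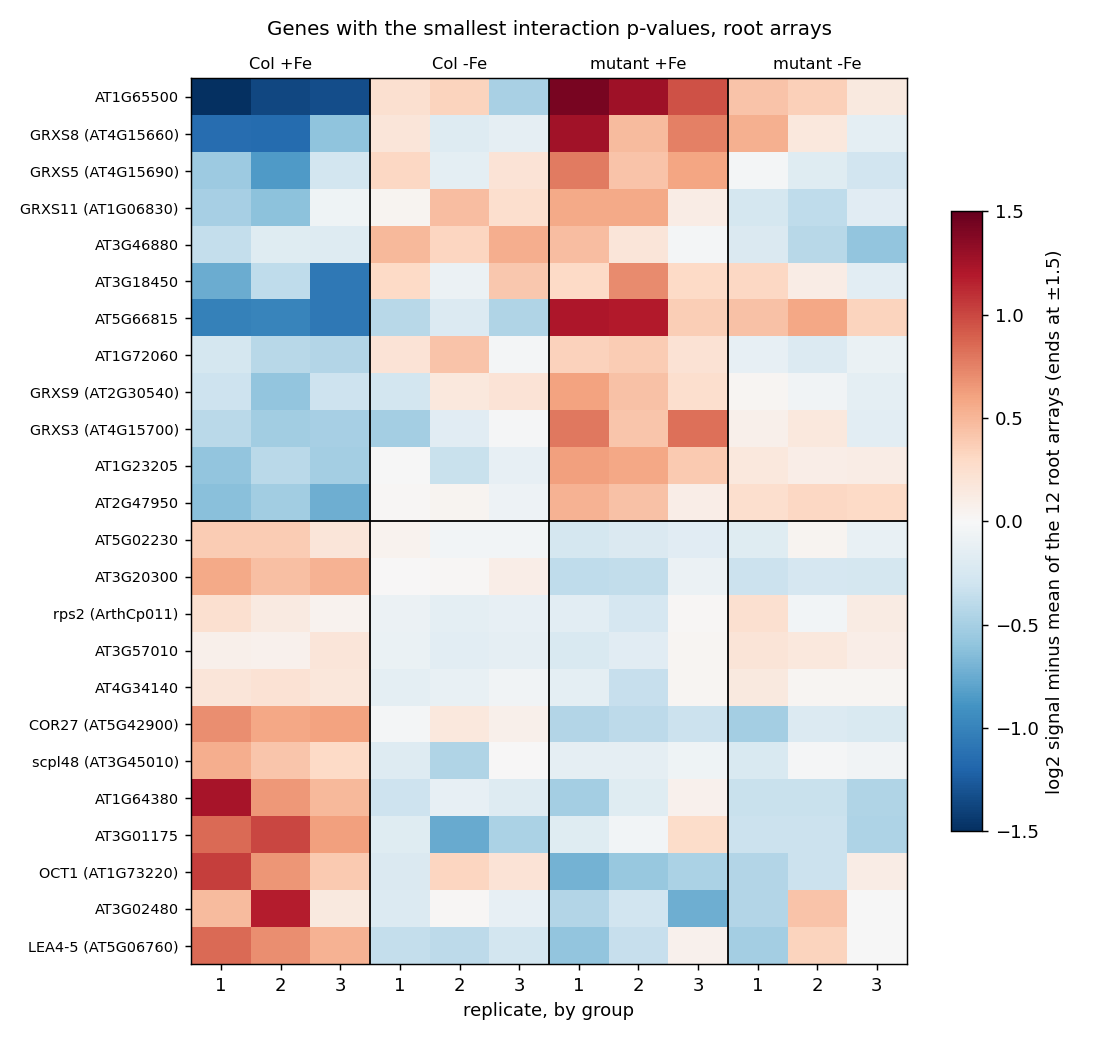
Log2 signal minus the mean of the 12 root arrays (colour, ends at 1.5 in either direction) for the 12 named genes with the smallest p-values for a negative (above the line) and a positive (below) interaction, with arrays in columns. Col +Fe is low and mutant +Fe high in the upper block, and Col +Fe is high in the lower block.

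Without mutant +Fe replicate 3 the interaction was called for 387 probe sets (2.17%), 227 negative (1.27%) and 160 positive (0.898%). The 3 calls made with 12 arrays were among them, and all 387 had the same sign with 12 arrays, where 321 had an unadjusted p under 0.05. The 2 fits share all arrays but 1, so this likeness is largely built in. Of the 227, 204 were also called higher in the mutant on +Fe in that fit, and 6 were called higher and 26 lower on -Fe. Of the 160, 144 were called lower in the mutant on +Fe, and 20 were called higher and 5 lower on -Fe. Over all probe sets, that fit called a genotype difference for 21.1% on +Fe and 5.03% on -Fe. The 387 were chosen by an interaction that holds the same arrays, so their genotype differences are descriptions. Array weights keep all 12 arrays but gave mutant +Fe replicate 3 the lowest weight (0.296). They gave 393 calls, 243 of them shared with the 387. Leaving out any other single array gave 0 to 6 calls. Leaving out replicate 3 of all 4 groups gave 16 calls, 9 negative and 7 positive, and 2 of the 3 calls made with 12 arrays were among them.

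In some of the genes with the smallest p in that fit, replicate 3 lay apart from replicates 1 and 2. In AT3G46880, also among them, the 3 mutant +Fe values were about evenly spaced (0.74, 0.47 and 0.25). NRPB9B (AT4G16265), a subunit of RNA polymerase II, measured 1.05 and 1.26 in mutant +Fe replicates 1 and 2 and 0.33 in replicate 3. It lay at -0.01 to 0.20 on the Col arrays and 0.29 to 0.46 on the mutant -Fe arrays. Its interaction was -0.67 ± 0.24 with 12 arrays (adjusted p = 0.583, limma) and -0.95 ± 0.12 without replicate 3 (adjusted p = 0.0107).

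The plastid gene psbK, for a photosystem II subunit, measured -1.26, -1.57 and -0.37 in mutant +Fe replicates 1 to 3. Its interaction was 0.92 ± 0.33 with 12 arrays and 1.27 ± 0.22 without replicate 3. Similar splits were measured for AT3G51110, at -1.25, -0.81 and 0.21, and for GYRB3 (AT5G04110), at -0.49, -0.59 and 0.38. These genes were picked from the fit without replicate 3, so its distance from the others is part of how they were chosen.

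**Figure D4:**
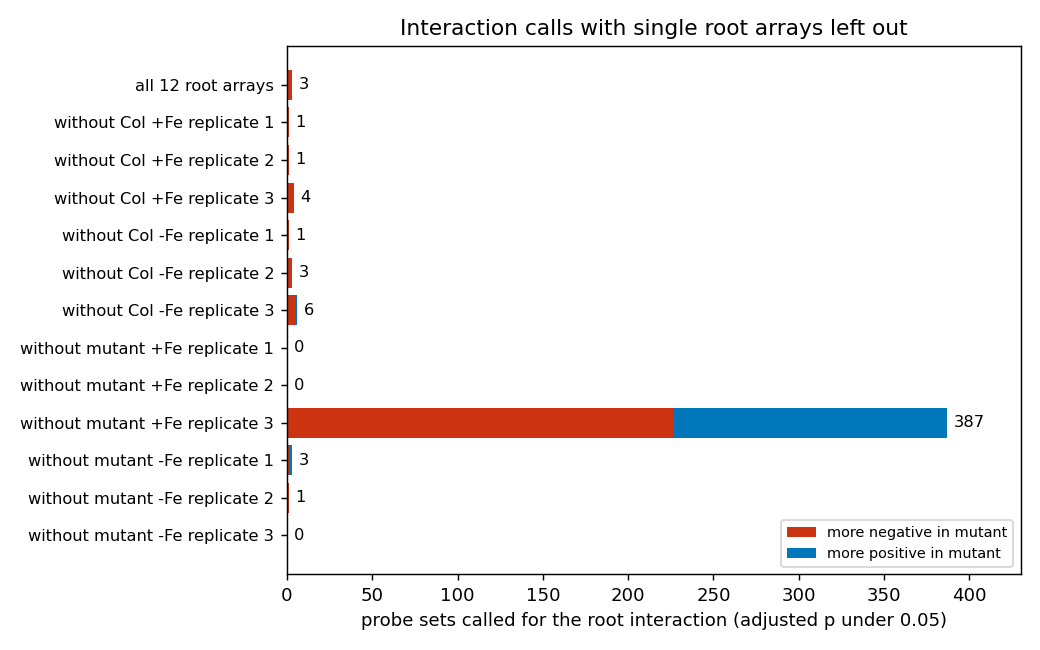
Number of probe sets called for the root interaction (x axis, adjusted p under 0.05) with all 12 root arrays and with each array left out, split by sign. The fit without mutant +Fe replicate 3 gave 387 calls, and the others gave 0 to 6.

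Among the lists of iron uptake and iron regulation, 10 probe sets rose in both genotypes (1.45% of all probe sets did). Their interactions ran from -1.12 to 0.57, and 0 were called. Half-widths of their 95% intervals ran from 0.269 to 0.842. S8H (AT3G12900), which hydroxylates scopoletin in coumarin synthesis, measured -0.32, -0.28 and 0.04 in Col on +Fe, 4.58, 5.34 and 4.97 in Col on -Fe, 0.11, -0.11 and -0.13 in the mutant on +Fe and 5.65, 5.61 and 5.76 in the mutant on -Fe. On -Fe every mutant array lay above every Col array, a difference of 0.71 ± 0.16 (adjusted p = 0.0223, limma). The response was 5.15 ± 0.16 in Col and 5.72 ± 0.16 in the mutant, and the interaction was 0.57, with a 95% interval from 0.09 to 1.05 and an adjusted p of 0.595 (limma).

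Other genes of iron mobilisation gave narrower bounds around 0. The interaction of F6'H1 (AT3G13610), which starts coumarin synthesis, was -0.10, with a 95% interval from -0.40 to 0.20. For BGLU42 (AT5G36890), a beta-glucosidase in the release of coumarins, it was 0.06 (-0.36 to 0.49), and for the metal transporter gene MTP8 (AT3G58060) 0.28 (-0.10 to 0.65). The list of iron uptake and mobilisation held 5 measured genes, of which 4 rose in Col (2.2% of all probe sets) and 5 in the mutant (2.87%), with a median interaction of 0.241. COSY (AT1G28680), a coumarin synthase, was the gene called in the mutant alone, and its interaction was 0.24 (-0.14 to 0.62), so the genotypes were not shown to differ.

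Iron regulators had 10 negative and 3 positive interactions over 13 probe sets, with a median of -0.059. IMA1 (AT1G47400), for a peptide that promotes the iron response, measured -2.55, -2.67 and -2.01 in Col on +Fe, 1.42, 1.72 and 1.12 in Col on -Fe, -1.18, -1.12 and -1.92 in the mutant on +Fe and 1.22, 1.33 and 1.37 in the mutant on -Fe. On +Fe all mutant arrays lay above all Col arrays, and on -Fe the genotypes overlapped. Its interaction was -1.12 ± 0.30 (adjusted p = 0.458, limma) and -1.37 ± 0.25 without mutant +Fe replicate 3, the only member called in that fit (adjusted p = 0.0274). No other fit with 1 array left out called IMA1, and its adjusted p reached 0.941.

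BHLH101 (AT5G04150), a bHLH factor of the cascade, had its genotype difference on the other medium. It measured 2.14, 2.81 and 2.32 in Col on -Fe and 1.37, 1.72 and 1.72 in the mutant on -Fe, without overlap, and -1.84 to -1.13 on the +Fe arrays of both genotypes. The mutant was lower on -Fe, at -0.82 ± 0.18 (adjusted p = 0.0247, limma), and the interaction was -0.78 ± 0.26 (adjusted p = 0.563). PYE (AT3G47640), a bHLH repressor, had an interaction of -0.18 (-0.45 to 0.09). The ubiquitin ligase gene BTSL2 (AT1G18910) gave -0.01 (-0.39 to 0.37). The pair of BTSL1 probe sets gave -0.06 and 0.04.

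**Figure D5:**
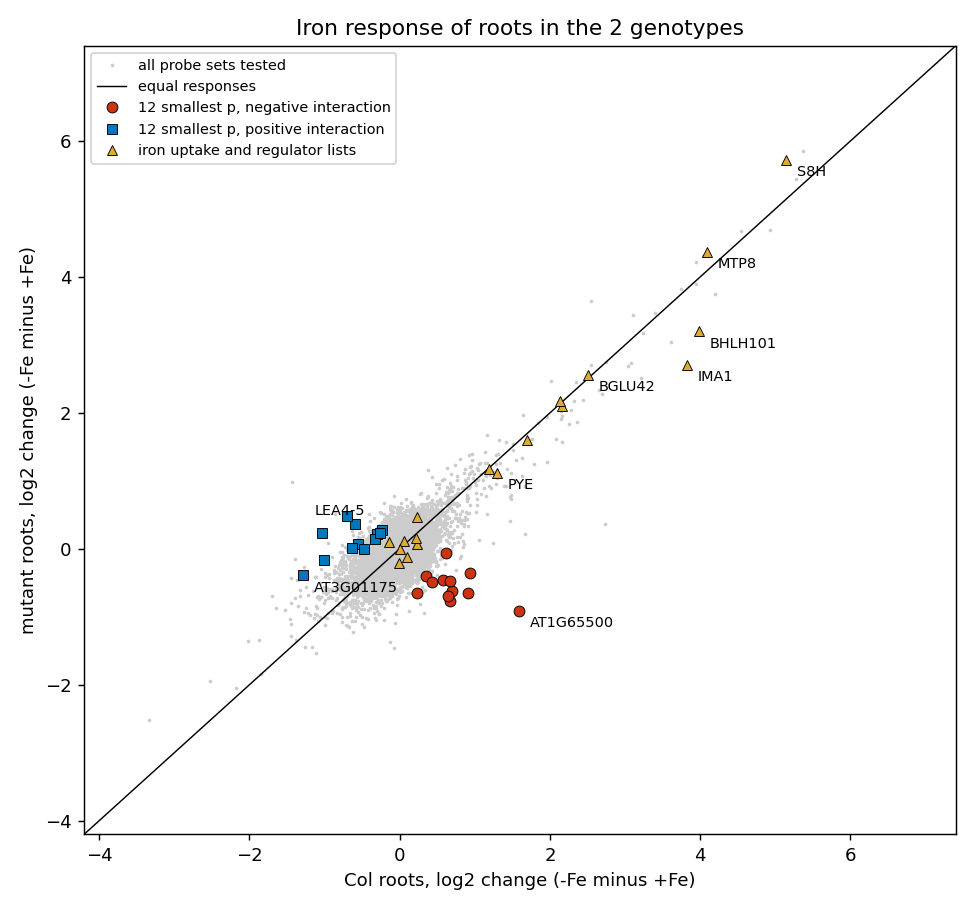
Iron response (-Fe minus +Fe, log2) of Col roots (x axis) and mutant roots (y axis) for all probe sets tested, with the line of equal responses. The iron-induced genes MTP8 and BGLU42 lie near the line, S8H lies above it, and IMA1 and BHLH101 lie below it. The 12 negative genes lie below the line at small responses. The axes share arrays with the interaction that chose the marked genes.

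Other lists held few measured genes, and 0 of their members were called for the interaction. Of 7 photosynthesis genes, 5 fell in Col (2.97% of all probe sets) and 5 in the mutant (4.24%), with a median interaction of 0.002. PSBW (AT2G30570) changed by -0.70 ± 0.12 in either genotype, and its interaction was 0.00 ± 0.16. Tetrapyrrole synthesis genes had 6 positive interactions of 7 and a median of 0.087. The 2 measured genes of copper and zinc supply, CCS (AT1G12520) and ZIP9 (AT4G33020), rose in both genotypes, and their interactions were 0.15 ± 0.13 and -0.06 ± 0.16. The cold and dehydration genes COR15A (AT2G42540) and COR47 (AT1G20440) fell in both genotypes, with interactions of 0.01 ± 0.15 and 0.06 ± 0.14. WES1 (AT4G27260), an auxin-conjugating enzyme, was the only auxin gene called in Col, where it fell by 0.41 ± 0.11, and its interaction was 0.40 ± 0.15 (adjusted p = 0.587, limma). RGLG5 (AT1G67800), a relative of the mutated genes, had an interaction of -0.05 ± 0.13.

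In leaves the interaction was called for 0 of 17810 probe sets (0%), with 910 at an unadjusted p under 0.05. Replicate 3 of the mutant leaf groups correlated less with its partners (r = 0.852 to 0.905) than other leaf replicates did with theirs (r = 0.944 to 0.971), and without those 2 arrays the count was again 0 (1230 unadjusted). With all leaf arrays the leaf interaction was -0.21 ± 0.45 for AT1G65500, -0.01 ± 0.24 for AT3G46880 and 0.34 ± 0.40 for GRXS5. Without those 2 arrays it was -0.30 ± 0.35, -0.15 ± 0.26 and 0.10 ± 0.31. The leaf estimates of GRXS3, GRXS6 and GRXC14 then turned from positive to negative, and those of GRXS4, GRXS8, GRXS9 and GRXS11 stayed positive. For the glutaredoxin list the median leaf interaction with all leaf arrays was 0.122.

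The difference between the tissues was tested in 1 fit of all 24 arrays. Root minus leaf interaction was called for 0 probe sets (0%), with 1826 at an unadjusted p under 0.05. It was -2.29 ± 0.58 for AT1G65500, -1.30 ± 0.31 for AT3G46880 and -1.78 ± 0.48 for GRXS5, each with an adjusted p of 0.342 (limma). With all arrays, the root calls were therefore not shown to be particular to roots. Without mutant +Fe root replicate 3 the difference was called for 101 probe sets, AT3G46880 among them (-1.42, adjusted p = 0.0465, limma), and for AT1G65500 and GRXS5 the adjusted p was 0.0693 and 0.102. BHLH101 had a negative estimate in leaves also, at -1.61 ± 0.42 (adjusted p = 0.936), and its root minus leaf interaction was 0.83 ± 0.53. AT1G72060 likewise gave -0.95 ± 0.36 in leaves, beside -1.03 ± 0.16 in roots.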

How the data were processed

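Per the submitters' processing notes, the authors made the deposited log2 values with RMA (no version given). In the deposited table each probe set's median over the 24 arrays was 0 within 5e-07. Which arrays were normalized together, and how the 17854 probe sets were chosen, is not stated. Values ran from -5.76 to 7.86. Columns were matched to samples by label, and 0 were left unmatched. The 44 controls were left out. Of 17810 probe sets, 9869 named 1 gene, 353 several and 7588 none; 9822 gene IDs matched the RefSeq annotation TAIR10.1, used for names only. Precision is limited by the number of arrays.

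Linear models (lmFit, eBayes of limma 3.58.1 under R 4.3.3), with 1 mean per group, were fitted on the 12 root arrays (8 residual degrees of freedom). P-values were two-sided and adjusted by Benjamini-Hochberg over 17810 probe sets in each of 5 root comparisons; a call is an adjusted p under 0.05. Errors are moderated standard errors. The fit was tested on simulated data. Leaves were fitted alone, and the tissues were compared in 1 fit of 24 arrays. Named genes are every called one, the 12 smallest p in each direction, the 8 smallest in each direction without mutant +Fe replicate 3, list members, and up to 2 unnamed probe sets in each direction. The 18 lists held 287 loci. Members, lists and tests were chosen with earlier results of these data known, so lists have counts and medians and no test. For S8H, BTSL1, BTSL2, IMA1, MTP8, COSY, RGLG5 and the GRXS and GRXC genes, symbols are those of the lists.

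Alternatives were array weights, quantile normalization, median-centred arrays, all 24 arrays, replicate blocks, robust eBayes, single-gene probe sets and arrays left out. Same-numbered arrays deviated together at r = -0.09 to 0.42, not above 0.1 in every pair, and the numbers were not taken to pair the samples. Leaving out both replicate 3 arrays of mutant leaves was added after seeing the data.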

Additional observations from a re-analysis of the deposited data

Results flagged for a closer look

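For 3 genes the iron response of roots differed between the genotypes by a test of the difference itself (limma, adjusted p under 0.05). The interaction of AT1G65500 was -2.50, that of AT3G46880 -1.31 and that of GRXS5 -1.44. In each of the 3 genes, all 3 Col arrays on -Fe lay above all 3 on +Fe, and all 3 mutant arrays on -Fe lay below all 3 on +Fe. Over all probe sets, 0.32% had that arrangement. The 3 genes were called from these same arrays, so the arrangement is a description and no separate evidence. On the 5′ minus 3′ measure of the control probe sets the mutant +Fe replicates 1 and 2 stood apart from the other root arrays. Without mutant +Fe replicate 1 or 2, 0 probe sets were called, and likewise without mutant -Fe replicate 3, whose 5′ minus 3′ difference was 0.237, within the range of the others.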

How the results depend on the processing

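The root interaction was called for 3 probe sets with 12 arrays, for 3 after quantile normalization, 4 with median-centred arrays, 4 with single-gene probe sets, 3 with all 24 arrays (2 of them shared) and 2 with robust eBayes. Array weights gave 393. With arrays left out, singly or by replicate number, counts ran from 0 to 387 for the root interaction, 364 to 1118 for the Col response, 262 to 3423 for the mutant response, 199 to 4898 for the genotype difference on +Fe and 112 to 911 on -Fe. With single arrays left out, counts ran from 0 to 0 for the leaf interaction and from 0 to 101 for root minus leaf. Neither was refitted without a whole replicate number. Root minus leaf was called for 1 probe set without both replicate 3 arrays of mutant leaves. The cause was not tested.

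Array weights gave 1578 calls for the Col response, 5097 for the mutant response, 5634 and 1921 for the genotype difference on +Fe and -Fe, 5 for the leaf interaction and 1344 for root minus leaf. All 24 arrays in 1 fit gave 514, 594, 798 and 253 for the first 4 of these, and single-gene probe sets, fewer in number, gave 407, 610, 999 and 335.

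The replicate number as a block gave 4 calls for the root interaction, 934 for the Col response, 1298 for the mutant response, 1862 and 670 for the genotype difference on +Fe and -Fe, and 0 for leaves and for root minus leaf. A block within genotype gave 7 for the root interaction and cannot estimate genotype differences. Of the arrays, 6 of 12 correlated best with their own number. Of 156 counts under these alternatives, 97 lay within 1.5 times the count given in the text and 59 did not. For the 3 called genes, 40 of 69 alternative values kept the call and 29 lost it. For the other named genes, 83 of 2319 gained a call, and 0 called values changed sign.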
